A study of Mus musculus with 30 samples.

Results

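The genes described here encode the peptides and receptors of the tachykinin and opioid systems. They comprised 2 tachykinin precursors (Tac1 and Tac2), 2 tachykinin receptors (Tacr1 and Tacr3), 3 opioid precursors (Penk, Pdyn and Pnoc) and 3 opioid receptors (Oprm1, Oprd1 and Oprl1). They were chosen by name, and all 10 were found by Ensembl identifier among the 17477 genes of the count table.

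RNA-seq was performed on whole hippocampus of adult C57 BL/6J mice that were either housed alone after weaning (social isolation, SI) or kept with cage mates (group-housed, GH). There were 8 SI and 7 GH females, with animal numbers between 41 and 79, and 7 SI and 8 GH males, with numbers between 1 and 39. All mice were of this 1 strain, no genotype or drug treatment is given for any group, and each library carried the number of 1 animal. The question was whether expression of each gene differed between SI and GH hippocampus within each sex, and whether that difference itself differed between the sexes.

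Tachykinins are short peptides, among them substance P and neurokinin B, that excite neurons through receptors coupled to Gq proteins. Opioid peptides, the enkephalins, dynorphins and nociceptin, act through receptors coupled to Gi and Go proteins and mostly lower excitability and transmitter release. In the hippocampus, dynorphin is known from the mossy fibres of dentate granule cells, while enkephalin, substance P and nociceptin are known mainly from interneurons and incoming fibres, and mu and delta opioid receptors from interneurons.

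A precursor transcript is not equivalent to 1 peptide, and the coding sequences are shown because they set how many peptides each counted transcript can give. In the GENCODE transcripts of the NCBIM37 assembly, Penk held 7 copies of the opioid core (tyrosine, glycine, glycine, phenylalanine, then methionine or leucine), of which 6 ended in methionine and 1 in leucine. Pdyn held 3 copies, all of which ended in leucine, and Pnoc held the related start of nociceptin once. Tac1 carried the common tachykinin ending (phenylalanine, any residue, glycine, leucine, methionine) in 2 places, those of substance P and neurokinin A, and Tac2 carried it once, for neurokinin B. The 15 bases of each core are in capitals below, with 6 flanking coding bases on either side.
Penk copy 1: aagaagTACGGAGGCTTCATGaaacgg
Penk copy 4: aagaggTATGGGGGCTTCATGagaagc
Penk copy 6: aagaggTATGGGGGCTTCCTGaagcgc
Pdyn copy 1: aaacgcTATGGCGGCTTTTTGcgcaaa
Pdyn copy 2: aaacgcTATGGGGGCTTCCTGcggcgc
Pdyn copy 3: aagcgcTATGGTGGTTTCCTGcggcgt
Pnoc: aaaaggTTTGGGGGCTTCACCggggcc
Tac1 copy 1: cagcagTTCTTTGGATTAATGggcaag
Tac1 copy 2: gattccTTTGTTGGACTAATGggcaaa
Tac2: gacttcTTTGTGGGACTTATGggcaag

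The leucine core of Penk (copy 6) and the second core of Pdyn were identical over all 15 bases, whereas Penk copies 4 and 6 differed at 1 base. All 7 Penk copies and all 3 Pdyn copies followed a pair of basic codons, the usual cleavage signal of prohormone convertases. Each tachykinin core was followed by a glycine codon, the residue from which the amide end of a mature tachykinin is made.

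Libraries held between 18809307 and 100844898 counts. Levels are given as CPM, the counts of a gene scaled to a common library total after TMM normalisation. SI males 25, 33 and 39 stood apart from the other 27 mice. Their libraries were rich in short transcripts, with genes under 2 kb exceeding genes of 4 kb and more by 0.89 to 1.15 on the log2 scale, relative to the mean library, against -0.40 to 0.28 in the others. The male comparisons of the 10 genes are therefore given with and without these mice. The fit without them held 4 surrogate variables (covariates estimated from the data), against 2 in the fit of all males. The fitted values without these mice therefore differ from the main ones in the covariates as well as in the mice. All genes of the dentate granule cell and CA pyramidal cell marker lists had counts in every mouse.

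Scaled by the length of the longest annotated transcript, the precursors were more abundant than most of their receptors. Mean levels over 30 mice fell from 16.3 ± 5.63 CPM per kb (SD) for Penk to 0.161 ± 0.0788 for Oprm1. Oprl1, the nociceptin receptor, was the exception among receptors, with 11.1 ± 1.02 CPM per kb, above every precursor but Penk. Tac1 followed at 7.75, then Tac2 at 5.46, Pdyn at 4.88 and Pnoc at 4.53 CPM per kb. Below these were the delta opioid receptor Oprd1 (1.88), the neurokinin B receptor Tacr3 (0.728), and the substance P receptor Tacr1 (0.289). The only neighbours in this order whose ranges did not overlap were Pnoc and Oprd1, and Tac2 exceeded Pdyn in only 14 of 30 mice.

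**Figure D1:**
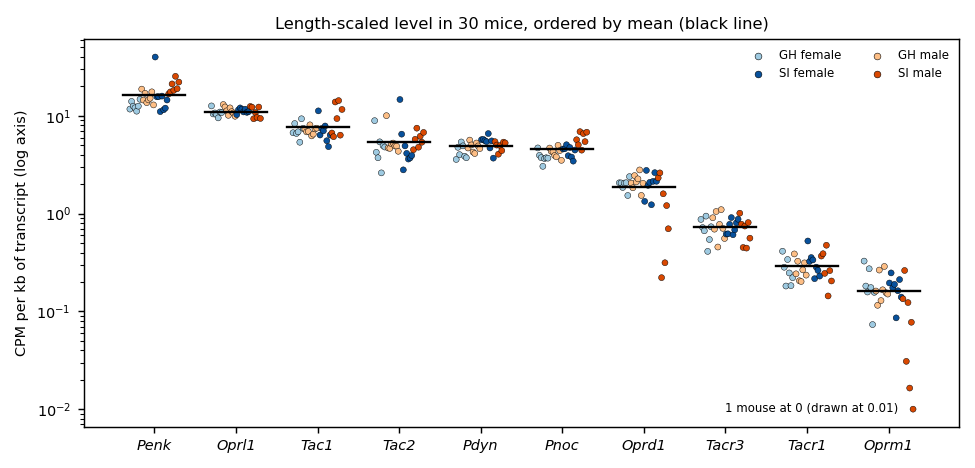
Level of each gene per mouse in CPM per kb of transcript (log axis), coloured by group, with a black line at the mean of 30 mice. Penk (mean 16.3) and Oprl1 (11.1) are at the top and Oprm1 (0.161) is at the bottom; the mouse without an Oprm1 count is drawn at 0.01.

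Oprm1, the mu opioid receptor, was below 1 CPM in all 30 mice, with counts of 0 to 71 per library. SI male 39 had 0 counts among 18809307, which allows a level of up to 0.162 CPM (3 counts, counting error only). Tacr1 was below 1 CPM in 3 mice, namely GH females 48 and 78 and SI male 33, and Oprd1 in SI male 25 alone. The other 7 genes were above 1 CPM in every mouse. The level of Oprl1 varied least, with a highest mouse only 1.4-fold above the lowest, whereas that of Oprd1 spanned 12.6-fold and that of Tac2 5.63-fold.

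None of the 10 genes differed between SI and GH mice at an adjusted p under 0.05 in either sex (edgeR quasi-likelihood test with surrogate variables, Benjamini-Hochberg adjustment over all genes tested). Over all genes, 3.89% of 16026 passed in females and 0% of 15833 in males. At an unadjusted p under 0.05, 1 of the 10 passed in females (Pdyn), beside 20.2% of all genes, and 4 in males (Penk, Pnoc, Oprm1 and Oprd1), beside 13% of all genes. Of these 4, Penk and Pnoc were higher in SI males and Oprm1 and Oprd1 lower, beside 5.63% of all genes higher and 7.38% lower at that p. The interaction of sex and housing passed for none of the 10, beside 0% of 16391 genes. DESeq2 called 44 genes in males (0.278%) and limma-voom 0, with none of the 10 genes among them. DESeq2 gave no adjusted p for Tacr1, Tacr3 and Oprm1 in males or for Tacr1 and Oprm1 in females, so these could not be called. In no gene were the groups separate, beside 0.324% of all genes in females and 0.0758% in males. The fitted Log2FC, SI minus GH, was positive for 8 of 10 genes in females (median 0.127, against 0.008 for all genes) and for 7 of 10 in males (median 0.074, against -0.002 for all genes). Standard errors were above the median gene's for 9 of the 10 in females and 8 in males, so the comparison was less precise here than for a typical gene.

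**Figure D2:**
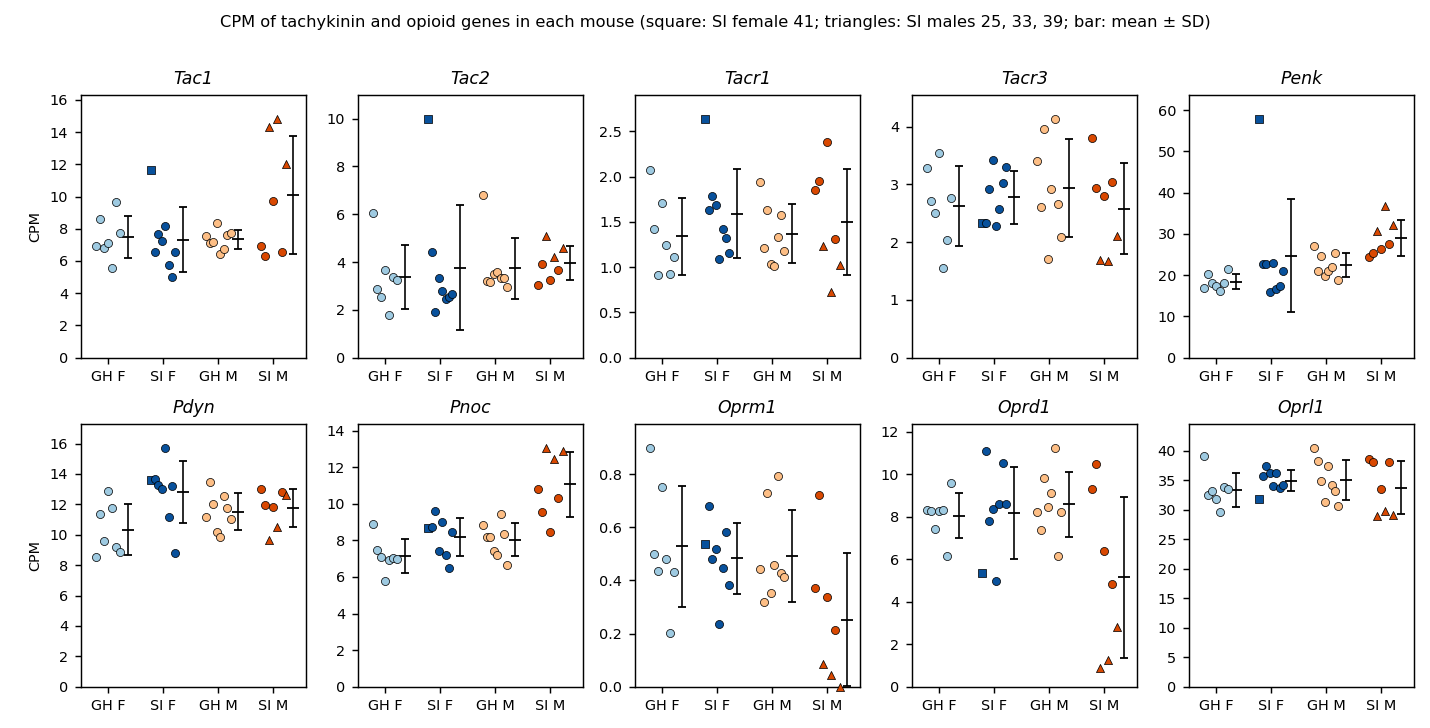
CPM of the 10 genes in each of 30 mice, by housing (GH, SI) and sex (F, M), with the mean ± SD beside each group. SI female 41 (square) is the highest mouse for Tac2, Tacr1 and Penk, and SI males 25, 33 and 39 (triangles) are the lowest for Oprm1 and Oprd1 and the highest for Tac1 and Pnoc.

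Among tachykinin precursors, Tac1 (chr6:7505071-7512973, NCBIM37), the source of substance P and neurokinin A, did not pass the test in either sex. In females, Tac1 ran from 5.004 to 11.6 CPM in SI mice (median 6.93) and from 5.55 to 9.65 in GH mice (median 7.10). The groups overlapped almost wholly, at 7.33 ± 2.01 (SD, n = 8) against 7.49 ± 1.33 CPM (n = 7), with a Log2FC of -0.04 ± 0.111 (SE). In males, Tac1 ran from 6.33 to 14.8 CPM in SI mice (median 9.69) and from 6.45 to 8.36 in GH mice (median 7.36). The means were 10.1 ± 3.67 CPM (SD, n = 7) in SI and 7.34 ± 0.609 (n = 8) in GH males. SI males 33, 25 and 39 carried this difference in means, at 12.01 to 14.8 CPM, above all of the other 27 mice. The other 4 SI males averaged 7.37 ± 1.57 CPM beside 7.34 in GH males. The fitted Log2FC for Tac1 in males was 0.09 ± 0.0898 (adjusted p = 0.691, edgeR) and 0.18 without those 3 mice. It was 0.26 without SI male 38, 0.03 without GH male 16 and 0.46 without surrogate variables, and did not pass in any of these fits.

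Tac2 (chr10:127162448-127168823), the precursor of neurokinin B, had the largest relative spread of the precursors. In females, Tac2 ran from 1.91 to 9.99 CPM in SI mice (median 2.74) and from 1.78 to 6.07 in GH mice (median 3.26). The means, 3.77 ± 2.62 (SD, n = 8) and 3.37 ± 1.35 CPM (n = 7), differed by far less than either SD. The Log2FC of 0.13 ± 0.303 (SE) became -0.19 without SI female 41 and -0.12 without GH female 71. In males, Tac2 ran from 3.06 to 5.09 CPM in SI mice (median 3.91) and from 2.95 to 6.83 in GH mice (median 3.34). Here a GH mouse, male 1, was highest, and the Log2FC of -0.11 ± 0.189 became 0.09 without it and -0.29 without SI males 25, 33 and 39. The sign of the Tac2 difference therefore turned with the omission of single mice in both sexes.

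The 3 mice with the highest Tac2 also had high levels of medial habenula markers (Chrnb4, Chrna3, Gpr151, Nwd2 and Irx2), a nucleus next to the hippocampus in which Tac2 is known to be expressed. The summed level of this list was 56.4 CPM in SI female 41, where Tac2 was 9.99 CPM. It was 37.6 in GH male 1 (Tac2 6.83) and 38.6 in GH female 46 (Tac2 6.07). The next highest Tac2 levels, 5.09 CPM in SI male 25 and 4.60 in SI male 39, came with low list sums of 23.2 and 20.5 CPM. In SI female 45 the list reached 38.4 CPM with Tac2 at 4.42. The list summed to 20.1 to 38.6 CPM in the mice other than SI female 41, and none of its genes was at 0 in any mouse. Nwd2 made up most of this sum, with a median of 24.2 CPM in those mice. The medians of the other markers were low, from 0.274 CPM for Irx2 to 0.984 for Chrna3. The part of these markers in the Tac2 values was not tested. In bulk tissue, more cells of a type and more RNA per cell cannot be told apart.

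**Figure D3:**
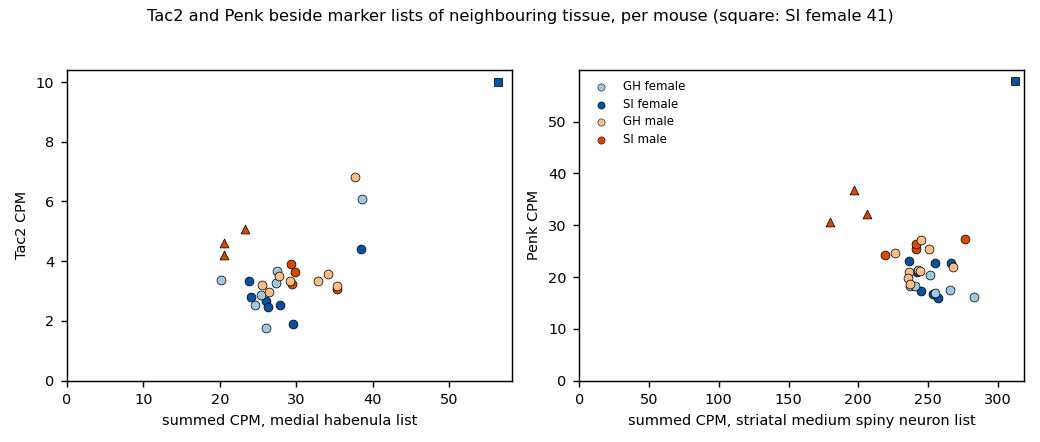
Tac2 CPM against the summed CPM of 5 medial habenula markers, and Penk CPM against that of 9 striatal medium spiny neuron markers, per mouse. SI female 41 (square) is highest on all 4 axes, with Tac2 at 9.99 and Penk at 57.9 CPM, whereas SI males 25, 33 and 39 (triangles) combine high Penk with the lowest striatal sums.

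Of the tachykinin receptors, Tacr1 (chr6:82352328-82510097), the substance P receptor, rested on 16 to 170 counts per library. In females, SI mice ran from 1.09 to 2.64 CPM (median 1.53) and GH mice from 0.913 to 2.07 (median 1.24). SI female 41 was again highest, and the Log2FC of 0.20 ± 0.216 (SE) was 0.07 without it and 0.38 without GH female 46. In males, Tacr1 ran from 0.723 to 2.39 CPM in SI mice (median 1.31) and from 1.02 to 1.94 in GH mice (median 1.28). The groups overlapped, with a fitted Log2FC of 0.34 ± 0.198 (adjusted p = 0.46, edgeR), which was 0.52 without SI males 25, 33 and 39 and 0.07 without SI male 27.

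Tacr3 (chr3:134491971-134597545), the neurokinin B receptor, showed no difference beyond the spread between mice. In females, the means were 2.77 ± 0.456 CPM (SD, n = 8) in SI and 2.63 ± 0.686 (n = 7) in GH mice, and no SI female lay outside the GH range. In males, they were 2.58 ± 0.787 (n = 7) and 2.94 ± 0.853 (n = 8). The Log2FC was 0.16 in females, with an interval of ± 2 SE from -0.14 to 0.45, and 0.06 in males, from -0.26 to 0.38. The male value was -0.08 without SI males 25, 33 and 39.

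Among opioid precursors, Penk (chr4:4060678-4065966), which encodes the enkephalins, had a higher mean in SI than in GH mice of both sexes without passing the test. In females, Penk ran from 15.99 to 57.9 CPM in SI mice (median 21.9) and from 16.2 to 21.4 in GH mice (median 18.2). SI female 41 stood alone at 57.9 CPM, with the next SI female at 23.1. Without this mouse SI females averaged 19.9 ± 3.13 CPM, beside 18.4 in GH females, and the Log2FC of 0.37 ± 0.223 (SE) fell to 0.13. In the same mouse, 5 of the 9 striatal medium spiny neuron markers were at their highest of 30 mice, including the adenosine receptor Adora2a (9.45 CPM, against at most 3.03 in the others). The summed striatal list was 312 CPM in SI female 41 and 179 to 283 in the other 29 mice, and none of its genes was at 0. Striatal neurons are a known site of high Penk expression, and the part of these markers in the Penk value was not tested.

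In males, Penk ran from 24.3 to 36.8 CPM in SI mice (median 27.4) and from 18.7 to 27.2 in GH mice (median 21.5). All 7 SI males were above the GH median, and 4 were above the highest GH male, 3 of them being males 25, 33 and 39. The group means were 29.0 ± 4.41 CPM (SD, n = 7) and 22.5 ± 2.96 (n = 8). The fitted Log2FC was 0.22 ± 0.0898 (SE) with an unadjusted p of 0.0241 and an adjusted p of 0.345 by edgeR. Without the 3 mice it was 0.12, and the other 4 SI males averaged 25.9 ± 1.34 CPM.

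Pdyn (chr2:129512301-129525580), which encodes the dynorphins, came nearest to a difference in females. SI females ran from 8.81 to 15.7 CPM (median 13.3) and GH females from 8.55 to 12.9 (median 9.57). In 6 of the 8 isolated females Pdyn exceeded the highest GH value, but females 73 and 63 lay within the GH range. The means were 12.8 ± 2.03 CPM (SD, n = 8) and 10.3 ± 1.67 (n = 7). The Log2FC of 0.32 ± 0.117 (SE) had an unadjusted p of 0.0154 and an adjusted p of 0.137 by edgeR. It was positive whichever mouse was left out (0.26 to 0.38), without reaching an adjusted p below 0.0636.

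The dentate granule cell markers had higher fitted values in SI females as well, in 8 of 8 genes with a median Log2FC of 0.18, of which 1 passed the test. This was not particular to them. All genes of the CA pyramidal cell (median 0.056), choroid plexus (0.256) and endothelial (0.114) lists were also higher, beside 52.8% of all genes. So were all genes of the medial habenula list (median 0.443), none with an unadjusted p under 0.05 (edgeR). SI female 41 carried the difference in the summed habenula level, at 56.4 CPM. The other 7 SI females averaged 27.99 CPM for this list, beside 27.07 in GH females. All genes of the astrocyte, oligodendrocyte and microglial lists were lower. The summed level of the dentate markers ran from 336 to 502 CPM in SI and from 294 to 418 in GH females, and none was at 0 in any mouse. The part of the dentate markers in the Pdyn values was not tested. In males, Pdyn was 11.8 ± 1.25 CPM (SD, n = 7) in SI and 11.5 ± 1.21 (n = 8) in GH mice, with no SI male above the highest GH male. The male Log2FC for Pdyn was 0.09 ± 0.0816 (SE), and 0.04 without SI males 25, 33 and 39, and the dentate list had a male median of 0.001. The difference between the male and female Pdyn values did not pass the interaction test (-0.22 ± 0.144, males minus females, adjusted p = 0.756, edgeR), and was -0.21 without those mice.

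Pnoc (chr14:66019510-66044046), which encodes nociceptin, had the smallest p of the 10 genes in males. SI males ran from 8.44 to 13.1 CPM (median 10.8) and GH males from 6.64 to 9.45 (median 8.18). Of the 7 SI males, 6 were above every GH male, and the lowest, male 27, was above the GH median. The means were 11.1 ± 1.78 CPM (SD, n = 7) and 8.04 ± 0.910 (n = 8). The Log2FC of 0.33 ± 0.0998 (SE) had an unadjusted p of 0.00457 and an adjusted p of 0.3 by edgeR.

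SI males 25, 33 and 39 were the 3 highest of 30 mice for Pnoc, at 12.5 to 13.1 CPM. The other 4 SI males averaged 9.78 ± 1.02 CPM, 1.22-fold the GH mean, and 3 of them were still above every GH male, but the fitted Log2FC without the 3 mice was 0.12. Leaving out SI male 27 gave a Log2FC of 0.42 with an adjusted p of 0.0107 by edgeR, in a fit that called 15.3% of all genes. The interneuron marker list summed to 1638 to 1895 CPM in males 25, 33 and 39, above the highest GH male at 1362, and to 1190 to 1483 CPM in the other 4 SI males. Its genes did not move together. In the 3 mice, the medians of 6 of its 12 genes were above those of GH males (Sst, Pvalb, Vip, Npy, Cck and Calb2) and 6 were below (Gad1, Gad2, Slc32a1, Reln, Lhx6 and Nos1). Cck (709 against 318 CPM) and Sst (499 against 267) made up most of the higher sum, whereas Gad1, the GABA-synthesising enzyme, was at 154 against 230 CPM. The part of these markers in the Pnoc values was not tested. In females, Pnoc was 8.19 ± 1.05 CPM (SD, n = 8) in SI and 7.17 ± 0.926 (n = 7) in GH mice, with 7 of 8 SI females above the GH median and a Log2FC of 0.13 ± 0.0721.

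None of the opioid receptors passed the test in females. Oprm1 (chr10:3308332-3588035), the mu receptor, was 0.483 ± 0.134 CPM (SD, n = 8) in SI and 0.528 ± 0.229 (n = 7) in GH females, and no SI female lay outside the GH range. Oprd1 (chr4:131666641-131700401), the delta receptor, was 8.18 ± 2.18 and 8.05 ± 1.05 CPM, with 2 SI females above and 2 below the whole GH range. Oprl1 (chr2:181449721-181455690), the nociceptin receptor, was 34.9 ± 1.78 and 33.4 ± 2.94 CPM. Oprl1 was measured most precisely, with a female Log2FC of 0.06 and an interval of ± 2 SE from -0.04 to 0.16.

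In males, Oprd1 ran from 0.890 to 10.49 CPM in SI mice (median 4.86) and from 6.17 to 11.2 in GH mice (median 8.36). The SI group fell apart into males 25, 33 and 39, at 0.890 to 2.81 CPM and below all of the other 27 mice, and 4 others at 4.86 to 10.49. Those 4 averaged 7.77 ± 2.59 CPM (SD), beside 8.58 ± 1.53 in 8 GH males. The fitted Log2FC over all males was -0.36 ± 0.118 (SE), with an unadjusted p of 0.00669 and an adjusted p of 0.308 by edgeR, and -0.22 without the 3 mice. Leaving out SI male 27 gave -0.55 for Oprd1 with an adjusted p of 0.0125, in the same fit that called 15.3% of all genes. Other omissions left it short of the threshold, from -0.18 without GH male 24 to -0.62 without SI male 38, and it was -0.72 without surrogate variables. The male Oprd1 difference minus the female one was -0.31 ± 0.129 (unadjusted p = 0.0216, adjusted p = 0.627, edgeR), and it was the only one of 10 interaction terms with an unadjusted p under 0.05, beside 7.49% of all genes. It lost that p without SI males 25, 33 and 39 (-0.24, unadjusted p = 0.0791, edgeR) and without surrogate variables (-0.74, unadjusted p = 0.0902, edgeR).

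Oprm1 in males ran from 0 to 0.720 CPM in SI mice (median 0.213) and from 0.317 to 0.792 in GH mice (median 0.435). Again SI males 25, 33 and 39 were the lowest of 30 mice, at 0 to 0.0848 CPM. The other 4 SI males averaged 0.410 ± 0.217 CPM, beside 0.491 ± 0.173 (SD) in 8 GH males. The Log2FC was -0.60 ± 0.271 (SE, adjusted p = 0.375, edgeR), and -0.46 without the 3 mice. With at most 20 counts in any SI male, smaller differences in Oprm1 were not detectable at this depth. Oprl1, in contrast, was 33.8 ± 4.50 and 35.1 ± 3.41 CPM in SI and GH males, with a Log2FC of 0.03 and an interval of ± 2 SE from -0.10 to 0.16, and -0.02 without the 3 mice.

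**Figure D4:**
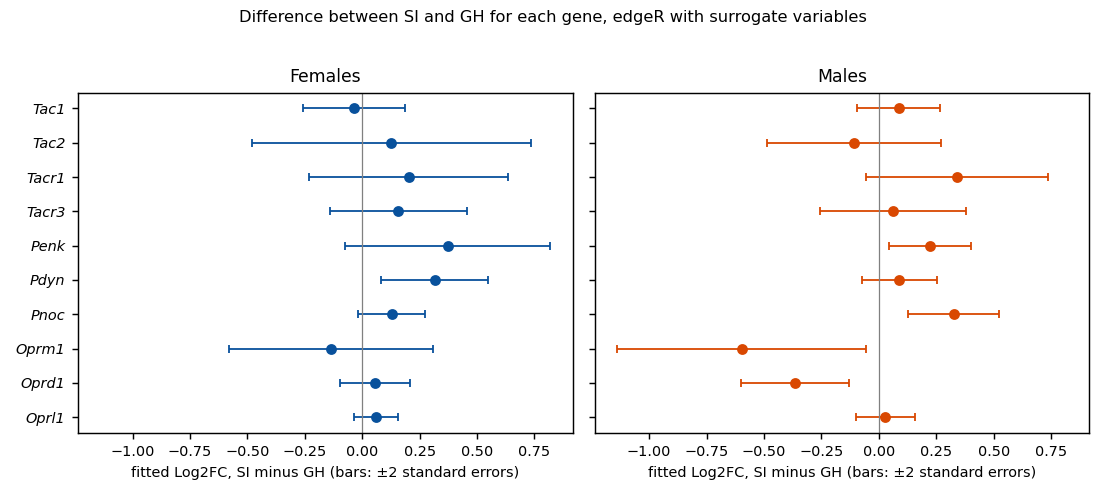
Fitted Log2FC, SI minus GH, of each gene in females and in males, with bars of 2 standard errors either side. In females the bar of Pdyn alone clears 0; in males those of Penk, Pnoc, Oprm1 and Oprd1 do, and none of the 10 genes passed the adjusted threshold in either sex.

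For 4 of the 10 genes, males 25, 33 and 39 lay outside the range of the other 27 mice, and the shorter pair of these were high and the longer pair low. Tac1 and Pnoc, with longest annotated transcripts of 1034 and 1894 bases, were highest in these mice, and Oprd1 and Oprm1, with 4021 and 2749 bases, were lowest. Over all genes tested in males, 65.0% of those under 2 kb and 33% of those of 4 kb and more had a positive fitted Log2FC, with medians of 0.04 and -0.06. The corresponding female shares were 50.6% and 49.3%. With each library's trend in length and GC content removed, the male Log2FC was 0.07 for Tac1 and 0.16 for Penk. It was 0.27 for Pnoc, -0.28 for Oprd1 and -0.50 for Oprm1. Pnoc and Oprd1 kept an unadjusted p under 0.05 in this fit (0.0173 and 0.0229, edgeR), and Penk and Oprm1 did not (0.111 and 0.0894). Tac2, with the shortest transcript (680 bases), was within the range of the other mice in these 3, at 4.20 to 5.09 CPM. Tacr1, with the longest (5025 bases), lay at 0.723 to 1.23 CPM in them, against 0.913 to 2.64 in the others.

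**Figure D5:**
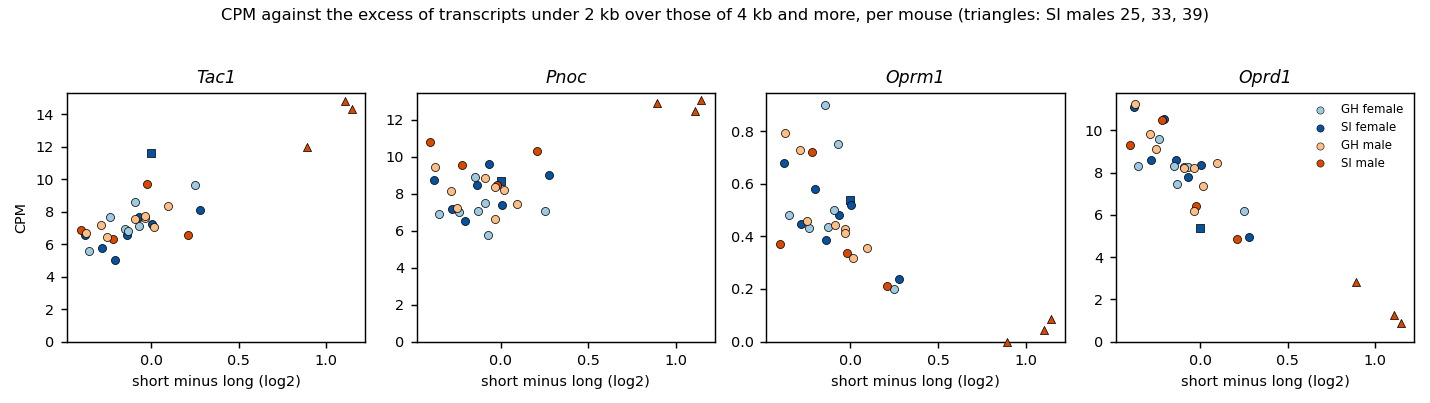
CPM of Tac1, Pnoc, Oprm1 and Oprd1 in each mouse against the library's excess of genes under 2 kb over genes of 4 kb and more (log2, relative to the mean library). SI males 25, 33 and 39 (triangles), at 0.89 to 1.15, are above all other mice for Tac1 and Pnoc and below all for Oprm1 and Oprd1.

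Across the 30 mice, after each group's mean was removed, the 10 genes did not vary as a unit. Of 45 pairs, 24 had a positive Spearman correlation and the median was 0.01. The highest were Tacr1 with Oprm1 (0.78) and Oprm1 with Oprd1 (0.75), and among precursors Penk with Pnoc (0.64) and Penk with Tac1 (0.64). The lowest was Tac1 with Oprd1 (-0.77). These are descriptions over mice that share tissue composition and library features such as the excess of short transcripts.

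Compared by the same measure with the 15770 genes tested in both sexes, the 3 closest to each gene were as follows. For tachykinin precursors they were Ppa2 (0.92), 2210013O21Rik and Ankra2 for Tac1, and 1810008A18Rik (0.78), Rprm and Map3k6 for Tac2. For tachykinin receptors they were Baiap3 (0.82), Peg10 and Irs4 for Tacr1, and Sdc3 (0.83), Celf6 and Slc39a10 for Tacr3. For opioid precursors they were Fgf9 (0.74), 1700052N19Rik and Akirin2 for Penk, Zfp143 (0.72), Hspa1l and Gfra2 for Pdyn, and Smap1 (0.88), Sfr1 and Tpm3 for Pnoc. For opioid receptors they were Ankrd50 (0.92), Ptchd2 and Shisa9 for Oprm1, Hs6st3 (0.97), Slc24a4 and Fam59a for Oprd1, and Sel1l3 (0.86), Agpat6 and Klhl26 for Oprl1. Oprd1 thus had the closest partner of the 10 and Pdyn the least close.

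The rest of both pathways was examined through lists of 62 genes, of which 60 were tested. In females 11 passed the test, 2 higher and 9 lower in SI (0.961% and 2.93% of all genes), while in males none did (edgeR). At an unadjusted p under 0.05 there were 24 in females (40% of those tested, beside 20.2% of all genes) and 16 in males (26.7%, beside 13%), of which 8 were higher and 8 lower. DESeq2 called 1 of these genes in males. Some of the remaining family members were sparse. Tac4 and Tacr2 were below 1 CPM in all 30 mice and were not tested, and Oprk1, the kappa opioid receptor, averaged 0.882 ± 0.337 CPM (SD) and was below 1 CPM in 20 mice. Pomc, the precursor of beta-endorphin, was 4.10 ± 1.93 CPM (SD) in SI and 2.10 ± 0.448 in GH males, with a fitted Log2FC of 0.40 (adjusted p = 0.332, edgeR), and 0.33 without SI males 25, 33 and 39. Ogfrl1, related to the opioid growth factor receptor, was abundant, at a mean of 174 CPM over 30 mice. Ogfr, that receptor itself, averaged 46.3 CPM. Ogfrl1 had a Log2FC of 0.17 in males (0.02 without those 3) and 0.05 in females, and Ogfr had -0.06 in females.

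Of 13 genes that process and store peptide precursors, 1 rose and 2 fell in SI females, and the list median was 0.093 (0.008 for all genes). Cpe, the carboxypeptidase that trims the basic residues left after cleavage, fell by 0.20 on the log2 scale (3351 ± 239 against 3908 ± 285 CPM, SD, n = 8 and 7, adjusted p = 0.0101). Scg3, a granule protein that binds chromogranin A, fell by 0.20 (257 ± 20.7 against 298 ± 19.4 CPM, adjusted p = 0.00945), and Scg2, a granin, rose by 0.18 (adjusted p = 0.0319). In males the smallest p in this list belonged to the convertase Pcsk1, with a Log2FC of -0.34, and to the granin Chga, with 0.38, and neither passed (adjusted p of 0.295 and 0.312). Without SI males 25, 33 and 39 they were -0.27 and 0.0083. No gene passed among 11 peptide-degrading enzymes in the main fit of either sex. Those with the smallest p were Thop1 (0.10) and Mme (0.17) in females and Ece2 (0.25) and Npepps (0.20) in males, the last at 0.05 without those mice and Ece2 at 0.33. In other fits Thop1 passed in females with the length and GC trend removed, without GH female 46 and without GH female 78. Its adjusted p was 0.0154, 0.0261 and 0.0358 (edgeR). Npepps passed in males without SI male 27 (adjusted p = 0.0331, edgeR), in the fit that called 15.3% of all genes.

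Among 20 genes of opioid receptor signalling, 4 fell and 1 rose in SI females, and the list median was 0.01. Grk3, a kinase that phosphorylates activated receptors, fell by 0.26 (81.3 ± 7.29 against 101 ± 7.36 CPM, SD, adjusted p = 0.00876), and Gnai2, a Gi alpha subunit, fell by 0.17 (255 ± 14.9 against 288 ± 12.3 CPM, adjusted p = 0.0127). Every SI female was below every GH female for both genes, beside 0.324% of all genes whose female groups did not overlap. Arrb1, an arrestin, fell by 0.24 and the adenylyl cyclase Adcy5 by 0.27, whereas the other arrestin, Arrb2, rose by 0.16 (adjusted p of 0.00972, 0.0288 and 0.0414). In males no gene of this list passed, and the smallest p belonged to Adcy1, with a Log2FC of -0.46, and Grk3, with -0.31 (adjusted p = 0.295 for both). Without SI males 25, 33 and 39 these were -0.18 and -0.09.

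Among 12 genes of tachykinin receptor signalling, 3 fell in SI females and none rose, and the list median was -0.02. These were the inositol trisphosphate receptors Itpr1 and Itpr2, which fell by 0.19 and 0.22, and the phospholipase Plcb3, which fell by 0.21 (adjusted p of 0.0266, 0.0339 and 0.0297). In males the smallest p was that of Itpr1, with a Log2FC of -0.45 (249 ± 134 CPM in SI against 416 ± 48.9 in GH, SD, n = 7 and 8, adjusted p = 0.295 by edgeR and 0.0218 by DESeq2). Plcb4 had 0.32. Without SI males 25, 33 and 39, Itpr1 was at -0.19 and Plcb4 at 0.25. These signalling and processing genes serve many receptors besides those described here.

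The female calls in these lists depended on how the model was fitted. With edgeR and no surrogate variables none of the 60 genes passed, as no gene of the whole table did, whereas limma-voom with quality weights and no surrogate variables called 13, all 11 among them. They also depended on single mice: without SI female 68 only Arrb1 passed. Of the 11 list genes that passed, 9 were lower in SI females, and so were 5 of 5 astrocyte markers, 2 of which passed (median Log2FC -0.21), with a summed level of 1372 to 1962 CPM in SI and 1725 to 2227 in GH females. All 5 oligodendrocyte markers (median -0.08, sums of 5224 to 8360 against 5989 to 9104 CPM) and all 5 microglial markers (median -0.08, sums of 228 to 277 against 242 to 289 CPM) also had lower values, and none of these passed. The part of these glial markers in the lists was not tested.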

How the data were processed

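RNA-seq libraries came from poly(A)-selected total RNA of frozen hippocampus. Per the labels, the authors used Trimmomatic 0.39 for trimming and Salmon 1.8.0 for quantification (builds GRCm39 and mm39 in the submitters' processing notes), and deposited 1 table of whole-number counts for 17477 genes in 30 mice, none with a total under 100. Gene-level estimates from Salmon carry mapping uncertainty that these counts do not show.

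Identifiers were matched to symbols and transcript lengths for 94.1% of genes through GENCODE annotation of NCBIM37, not the authors' build. Coordinates and coding sequences are from it, and 5 list genes were found through an older symbol. The length of a gene was that of its longest annotated transcript, which need not be the one expressed. Genes were filtered with filterByExpr (count 10, total 15), scaled by TMM and tested in each sex with the edgeR 4.0.16 quasi-likelihood test, with surrogate variables from sva 3.50.0 (3 in females, 2 in males, 4 for the interaction of sex and housing over all 30 mice). Benjamini-Hochberg adjusted p-values under 0.05 over all genes tested passed. Scripts were tested on simulated data. Alternatives were DESeq2 1.42.0 with apeglm, limma 3.58.1 (voom with quality weights and no surrogate variables), edgeR without surrogate variables, a factor for the digit that ends each sample title (position digit) in place of them, DESeq2 size factors, other filters, a lowess correction of each library for transcript length and GC content (15964 genes with both), and leaving out mice. For the pathway lists they were added after the data were seen. Surrogate variables were estimated anew in each fit that used them, so their number could change, as to 4 in males without SI males 25, 33 and 39.

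Mice of a group were taken as replicates by their animal numbers, and the 98 replicate pairs differed by at least 9.31 times counting noise (chi-square per degree of freedom). GH mice shared cages, whereas each SI mouse was alone in its cage. The labels do not give the cage, so GH mice of the same cage could not be identified and may not be independent. Named genes were the 10 members, list genes that passed or had the 2 smallest p in a sex, and the 3 genes most correlated with each member. Members and lists were chosen with earlier results of these data known.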

Additional observations from a re-analysis of the deposited data

Results flagged for a closer look

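Each gene's CPM was examined for a single distant mouse in each of the 4 groups, 40 sets of values in all, of which about 1 in 20 would be picked out by chance. There were 5 such sets, and they came from 2 libraries. SI female 41 was the far highest SI female for Penk (57.86 CPM, with the next at 23.07), Tac2 (9.989, next 4.417), Tacr1 (2.637, next 1.785) and Tac1 (11.62, next 8.14), the last of these barely past the critical gap of 0.526 of the group's range. GH male 1 was the far highest GH male for Tac2, at 6.828 CPM, with the next at 3.58.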

How the results depend on the processing

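The count of the 10 genes that passed stayed at 0 in every female fit and in all male fits except the one without SI male 27, which gave 2 (Pnoc and Oprd1, range 0 to 2 over the mice left out). That fit called 2413 genes of 15790. Over the whole table, counts of calls moved by over 1.5 times in females under DESeq2 (1263), with edgeR and no surrogate variables (0), with the position digit in place of the surrogate variables (0), with a mean of at least 1 CPM (303), with the length and GC trend removed (1508) and with 1 mouse left out (88 to 1428), against 624. In males they were 44 under DESeq2, 1 without SI males 25, 33 and 39, and 0 to 2413 with 1 mouse left out. Leaving out 1 mouse turned the sign of fitted values near 0. In females these were Tac1 (-0.12 to 0.0245), Tac2 (-0.19 to 0.49), Tacr3 (-0.0069 to 0.22), Oprm1 (-0.25 to 0.0388) and Oprd1 (-0.0067 to 0.0854), and in males Tac2 (-0.18 to 0.0944), Tacr3 (-0.0433 to 0.16) and Oprl1 (-0.0121 to 0.0604). Of the other settings, limma-voom turned Tac2 in females (-0.0735). In males, edgeR without surrogate variables turned Tac2 (0.0797), Tacr3 (-0.18) and Oprl1 (-0.0517), the position digit turned Tacr3 (-0.25) and Oprl1 (-0.0921), and leaving out the 3 males turned Tacr3 (-0.0822) and Oprl1 (-0.0219). For the interaction, Tacr1 was -0.10 without surrogate variables and Pnoc -0.0028 without the 3 males. The cause was not tested. Pdyn in females had an unadjusted p under 0.05 in 23 of 24 fits and Pnoc in males in 24 of 25. Of the pathway list genes, 11 passed in females, against 17 under DESeq2, 13 under limma-voom, which also had no surrogate variables, 0 by edgeR without surrogate variables, 0 with the position digit in their place, 5 with a mean of at least 1 CPM, 21 with the length and GC trend removed, and 1 to 17 with 1 mouse left out. Leaving out SI female 49 (6), 73 (6), 63 (5), 68 (1) or 45 (4) or GH female 54 (5), 78 (17), 71 (7) or 48 (5) moved it by over 1.5 times. In males 0 passed, against 1 under DESeq2 (Itpr1) and 0 to 16 with 1 mouse left out, with 16 without SI male 27 and 1 without SI male 38, where Plcb4 also turned (-0.0233, up to 0.4427 without other mice). A mean of at least 1 CPM removed Oprm1 and gave no value for it. With CPM of the raw library totals, Oprm1 was still below 1 CPM in all 30 mice. No paired analysis was possible because animal numbers are not shared between groups. Oprm1 and Tacr1 rest on few counts, and only large differences in them could be seen at this depth.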

Other observations

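SI female 41 also had the lowest summed level of CA pyramidal cell markers of the 30 mice, at 540 CPM against 544 to 832 in the others. Its thalamic list summed to 293 CPM, against 134 to 325 in the other 29 mice, and 1 of the 6 thalamic genes was highest in this mouse. Its level of Pnoc (8.67 CPM) and Oprl1 (31.9 CPM) lay within the range of the other mice.

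In SI males 25, 33 and 39 the microglial list summed to 331 to 408 CPM, against at most 289 in any GH mouse, and the oligodendrocyte list to 7673 to 10030 CPM.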
